A study of Mus musculus with 15 samples.

Results

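The 9 genes described here encode the pre-B cell receptor and the proteins that carry its signal: *Igll1*, *Vpreb1*, *Cd79a*, *Cd79b*, *Blk*, *Syk*, *Btk*, *Blnk*, and *Cd22*. They were taken by name from the mouse mm9 annotation, as 9 of 22342 protein-coding genes on the autosomes and the X chromosome. *Syk* is listed there under its older name *Sykb*. For each gene, sequence tags of 3 histone marks were counted in 3 kb centered on the transcription start site (TSS), and in 3 kb windows over the gene body plus 20 kb on each side (the domain of the gene). The 9 domains held 199 distinct windows.

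The chromatin came from C10 cells, a line derived from the HAFTL mouse pre-B line that expresses C/EBPα fused to the estrogen receptor and tagged with GFP. Per the labels, cells received 100 nM β-estradiol together with the cytokines IL-3 and CSF-1 at 10 nM, control cells received the solvent ethanol, and chromatin was taken at 0, 3, 12, 24, and 48 hr post-induction (hpi). The study's methods give the estradiol dose in another unit. The hormone-bound fusion acts as a transcription factor, under which this B lineage line takes on macrophage features. Each of the 15 libraries is 1 ChIP-seq sample of H3K4Me1, H3K27Ac, or H3K27Me3 at 1 time, all from the same line, so no comparison between times has a replicate check and no p-value is given. The intervals below are 95% intervals that cover counting error only, and the 4 later times of a mark share its 0 hpi library.

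H3K27Ac marks active promoters and enhancers, H3K4Me1 marks enhancers whether active or poised, and H3K27Me3 is the mark of Polycomb repression. In pre-B cells, the surrogate light chain made of λ5 (*Igll1*) and VpreB (*Vpreb1* and its near-copy *Vpreb2*) pairs with the immunoglobulin heavy chain, and the CD79A-CD79B heterodimer transmits the signal of the assembled receptor through cytoplasmic ITAM motifs. Src family kinases such as BLK phosphorylate these motifs, SYK docks on them and activates BTK and the adaptor BLNK, and CD22 recruits phosphatases that dampen the response.

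The libraries held 11041458 to 31557475 tags, and counts below are from distinct tags thinned to 15216488 (H3K27Ac), 10913733 (H3K4Me1), and 15338280 (H3K27Me3) per library. A mappable 3 kb window then held on average 18.3, 13.1, and 18.4 tags, and a window was called enriched at 34, 27, and 34 tags or more, respectively. Changes are log2 ratios after adding 5 tags to each count, and "fell" and "rose" are used for changes of at least 2-fold. The marker genes, listed with earlier results of these data known, moved with the labels. H3K27Ac at the TSS fell at 48 hpi for 8 of 9 pre-B markers (summed tags 7650 at 0 hpi and 2656 at 48 hpi). It rose for 9 of 9 macrophage markers found (799 and 4354, with *Csf3r* at only 6 and 17 tags). It changed 2-fold at 0 of 5 T cell markers (111 and 71), 0 of 4 erythroid markers (142 and 116), and 0 of 5 genes used by every cell (2998 and 2271). Of all TSSs with a mean of at least 20 tags over the 5 times, 14.6% fell and 6.43% rose. Only 1 of the 5 T cell and 2 of the 4 erythroid markers had that mean, and few tags leave little room for a 2-fold fall. *Cd3e*, *Cd4*, *Cd8a*, *Gata1*, and *Hbb-b1* stayed at 7 tags or fewer at each time, whereas *Lck* (83 tags at 0 hpi and 42 at 48 hpi) and *Klf1* (103 and 94) had more. These are bulk libraries, so that fewer cells with the mark and less of the mark per cell cannot be told apart.

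Promoters are shown for the genes with the largest and the smallest drop of H3K27Ac at 48 hpi, ranked by the log2 change as defined above. With 1 tag added to each count, *Blk*, at few tags, ranked before *Cd22* and *Cd79a*. Each promoter is given as the 250 bases that end just before the TSS, in mm9 and on the strand of the gene. Capitals mark letters that match GAGGAAG (an Ets form bound by PU.1), CAGCTG or CAGGTG (E boxes bound by E2A), CCCNNGGG (an EBF1 form), or TTGCNNAA (a C/EBP form), each searched on both strands and counted separately where forms overlap. *Cd22* and *Cd79a* had the largest drop:
*Cd22* promoter, chr7:31665362-31665611, minus strand: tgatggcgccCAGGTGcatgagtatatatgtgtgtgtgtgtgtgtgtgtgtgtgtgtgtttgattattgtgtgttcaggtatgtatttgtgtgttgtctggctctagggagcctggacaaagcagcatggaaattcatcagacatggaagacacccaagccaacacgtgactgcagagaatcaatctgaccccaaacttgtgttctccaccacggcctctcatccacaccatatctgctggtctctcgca
*Cd79a* promoter, chr7:25682150-25682399, plus strand: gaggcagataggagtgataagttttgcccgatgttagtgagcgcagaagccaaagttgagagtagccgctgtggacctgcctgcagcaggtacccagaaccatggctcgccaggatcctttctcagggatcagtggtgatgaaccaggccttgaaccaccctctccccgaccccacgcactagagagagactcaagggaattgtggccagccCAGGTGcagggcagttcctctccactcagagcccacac
*Syk* and *Btk* had the smallest:
*Syk* promoter, chr13:52678292-52678541, plus strand: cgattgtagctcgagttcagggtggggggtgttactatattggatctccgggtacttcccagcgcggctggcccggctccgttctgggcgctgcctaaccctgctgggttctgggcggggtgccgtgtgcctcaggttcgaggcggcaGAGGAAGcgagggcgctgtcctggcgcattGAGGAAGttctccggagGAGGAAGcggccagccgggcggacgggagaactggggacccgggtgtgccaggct
*Btk* promoter, chrX:131117680-131117929, minus strand: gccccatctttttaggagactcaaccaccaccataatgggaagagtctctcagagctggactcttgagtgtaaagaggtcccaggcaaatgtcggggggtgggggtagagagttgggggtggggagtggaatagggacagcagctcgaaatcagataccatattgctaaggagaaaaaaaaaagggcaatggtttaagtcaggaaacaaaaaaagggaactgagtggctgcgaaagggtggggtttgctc

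The *Syk* promoter held GAGGAAG at 3 places, the *Cd22* and *Cd79a* promoters each held CAGGTG once, and the *Btk* promoter matched none of the 5 forms. Among the 9 genes, CAGGTG was in 5 promoters (*Igll1*, *Vpreb1*, *Cd79a*, *Blk*, and *Cd22*), GAGGAAG in 2 (*Vpreb1* and *Syk*), CAGCTG in 2 (*Igll1* and *Cd79b*), CCCNNGGG in 1 (*Igll1*), and TTGCNNAA in 1 (*Blnk*). Only exact matches were counted, so a binding site that differs from its form by any letter is missed, and a promoter without a match may still hold one. Over the same 250 bases of all 22342 promoters, the shares were 16.8% for CAGGTG, 10.7% for GAGGAAG, 11.8% for CAGCTG, 13.3% for CCCNNGGG, and 9.0% for TTGCNNAA.

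At 0 hpi, 8 of the 9 TSSs were strongly acetylated, with 582 to 1519 H3K27Ac tags or 31.8 to 83.0 times the genome mean. *Blk* was the exception with 28 tags. The 5 genes used by every cell had 241 to 1176 tags at 0 hpi. Of all 22342 protein-coding TSSs, 10203 had a mean of at least 50 tags over the 5 times, and the share as high as these 8 was not counted. By 48 hpi, H3K27Ac had fallen at least 2-fold at 7 of 9 TSSs, including *Blk* with its low counts. Among the 11155 protein-coding TSSs with a mean of at least 20 tags over the 5 times, 14.6% fell at 48 hpi. 8 of the 9 genes passed that filter and *Blk* did not. The median log2 change over the 9 genes was -1.58, beside -0.24 over all TSSs that passed.

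**Figure D1:**
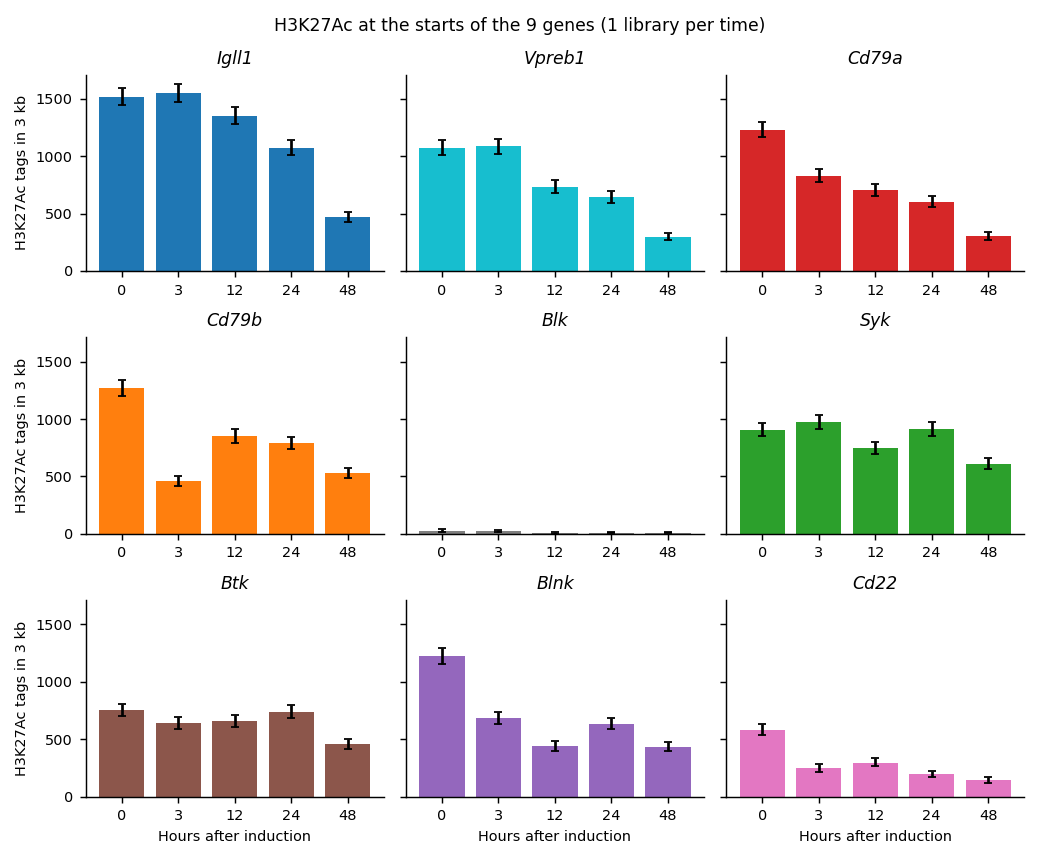
H3K27Ac tags in 3 kb centered on the TSS of each gene (y axis, tags, same scale in all panels) against hours after induction (x axis), 1 library per bar with its 95% Poisson interval. *Igll1* and *Vpreb1* hold their level at 3 h (1552 and 1086 tags), *Cd79b* dips to 460 tags at 3 h and stands at 850 at 12 h, *Syk* and *Btk* keep most of their signal, and *Blk* lies near the bottom at 6 to 28 tags.

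At equal depth, *Igll1* and *Vpreb1* of the surrogate light chain kept their acetylation at 3 hpi, and both fell by 48 hpi. With libraries scaled on background bins, their log2 changes at 3 hpi were -0.27 and -0.29, outside their counting intervals. *Igll1* (ENSMUSG00000075370.3, chr16:16860764-16864078, minus strand) had 1519 H3K27Ac tags before induction and 1552, 1355, 1075, and 471 tags at the 4 later times. The last value was the lowest, at a log2 change of -1.68 (-1.84 to -1.54), and the largest step was from 24 to 48 hpi (log2 -1.18). In the innermost 1 kb the log2 change at 48 hpi was -0.89, which is less than 2-fold. In 6 kb it was -2.00, and with tags as deposited in 3 kb it was -1.87. Only 1 tag was kept per position, which caps the count of a window at its length. The part of this cap in the smaller change at 1 kb was not tested. *Vpreb1* (ENSMUSG00000059305.4, chr16:16868495-16870936, minus strand) had 1074, 1086, 734, 645, and 299 tags at the 5 times, a log2 change of -1.83 (-2.03 to -1.66) at 48 hpi. As for *Igll1*, the 0 and 3 hpi intervals overlapped and the step from 24 to 48 hpi was the largest (log2 -1.10). At the most upstream start of *Vpreb1*, 1588 bp away, the change at 48 hpi was -1.03. The 3 kb at the TSS used also held the start of *Top3b*, a DNA topoisomerase gene on the other strand.

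*Igll1* and *Vpreb1* lie beside each other, and their TSSs share 1 acetylated stretch. The 3 kb window with the *Vpreb1* exons, -3.4 kb from the *Igll1* TSS, held 1070 tags at 0 hpi and 136 at 48 hpi (log2 -2.93), and the window 2.6 kb into *Igll1* held 1224 and 217 (log2 -2.47). The window with the starts of both *Vpreb1* and *Top3b* kept more, with 1103 and 511 tags (log2 -1.10). None of the 15 windows of the *Vpreb1* domain was enriched for H3K27Me3 at any of the 5 times. In the *Igll1* domain, 1 window, at 17.6 kb, reached the limit with 34 tags at 24 hpi. In the genome, 116746 of 831443 mappable windows were enriched at 0 hpi and 128801 at 48 hpi. H3K4Me1 was 69, 114, 184, 143, and 98 tags in the window with the *Vpreb1* exons, at least 2-fold higher at 12 hpi (log2 1.35) and 24 hpi, and 97, 136, 137, 155, and 175 in the one 2.6 kb into *Igll1*. Of the windows at least 3 kb from the *Vpreb1* TSS, that with the *Igll1* start had the most H3K27Ac over the 5 times (1337, 1441, 1269, 1042, and 465 tags, log2 -1.51).

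*Vpreb2*, which encodes a second VpreB and lies elsewhere on the chromosome (chr16:17980514-17981366), had 1135, 409, 184, 73, and 58 tags. It was thus 2-fold down already at 3 hpi (log2 -1.46) and reached -4.18 at 48 hpi, when *Vpreb1* stood at -1.83. *Vpreb3*, whose product associates with newly made receptor chains, had 334, 133, 235, 290, and 428 tags and did not change 2-fold at 48 hpi (log2 0.35), the 1 pre-B marker of 9 that did not fall. Of 36-base stretches in the TSS windows, 80.3% were unique in the genome for *Vpreb1* and 80.4% for *Vpreb2*. Tags from the other stretches are not counted, since the authors kept unique tags only.

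Both genes of the signaling heterodimer fell by 48 hpi, with different values at 3 hpi. *Cd79a* (ENSMUSG00000003379.7, chr7:25682400-25687216, plus strand) had 1232, 828, 706, 601, and 307 H3K27Ac tags, each lower than the one before, with a log2 change of -1.99 (-2.19 to -1.82) at 48 hpi. *Cd79b* (ENSMUSG00000040592.5, chr11:106172655-106176076, minus strand) had 1269, 460, 850, 790, and 527 tags. Its 3 hpi library was the lowest of the 5 (log2 -1.45, -1.62 to -1.31), 12 and 24 hpi lay between, and the change at 48 hpi was -1.26 (-1.42 to -1.12). With libraries scaled on bins enriched at all 5 times, the 48 hpi value of *Cd79b* was -0.94, under 2-fold, and the 3 hpi value was -1.33.

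The dip of *Cd79b* at 3 hpi extended over its domain. Of 11 windows with a mean of at least 20 H3K27Ac tags, 9 were at least 2-fold lower at 3 hpi and all 11 at 48 hpi, beside 9.34% and 16.7% of such windows in the genome. The log2 changes at 3 hpi ran from -1.60 to -0.66. The window 7.6 kb from the TSS, past the 3′ end of the gene, held the most tags away from the TSS when summed over the 5 times and had 1071, 607, 635, 641, and 354 tags. A window in the neighboring *Scn4a*, a muscle sodium channel gene, at -10.4 kb had 959, 416, 467, 522, and 409 tags. H3K4Me1 in the same 11 windows had a median log2 change of -0.06 at 3 hpi and -0.99 at 48 hpi.

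In the *Cd79a* domain, the window away from the TSS with the most tags over the 5 times was the start of *Rps19*, a ribosomal protein gene at -12.9 kb, with 749, 883, 522, 595, and 515 tags (log2 -0.54). The window at -3.9 kb, between *Rps19* and *Cd79a*, fell from 182 to 44 tags (log2 -1.93), and its H3K4Me1 fell from 129 to 26. At the far end, in *Dmrtc2* at -18.9 kb, H3K4Me1 rose from 17 tags to 75 at 3 hpi, 190 at 12 hpi, and 111 at 48 hpi. That window was enriched for H3K27Me3 at all 5 times, with 81 to 121 tags.

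The 3 kinases differed. *Syk* (ENSMUSG00000021457.8, chr13:52678542-52744161, plus strand) had 908, 972, 748, 913, and 611 H3K27Ac tags at its TSS, a log2 change of -0.57 (-0.72 to -0.42) at 48 hpi that was under 2-fold and lay at percentile 30.6 of the TSSs that passed the filter. *Btk* (ENSMUSG00000031264.7, chrX:131076875-131118109, minus strand) had 752, 640, 655, 739, and 455 tags, a log2 change of -0.72 (-0.90 to -0.55), at percentile 23.6. At equal depth, the 0 and 24 hpi libraries did not differ beyond counting error at either TSS. Scaling on background bins adds 0.64 (log2) to H3K27Ac at 24 hpi, which is more than that error. In 6 kb around the *Btk* TSS the change was -1.04. That wider stretch also takes in the start of *Rpl36a*, a ribosomal protein gene.

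*Blk* (ENSMUSG00000014453.3, chr14:63991674-64036024, minus strand) had 28, 23, 5, 6, and 6 tags, at or below 1.53 times the genome mean, and below the limit of 34 tags. On the window grid, the 3 kb with the *Blk* start held 47, 44, 9, 8, and 8 tags and was enriched at 0 and 3 hpi, and the intron window at 5.5 kb, the one with the most tags away from the TSS, held 43, 20, 12, 8, and 7 and was enriched at 0 hpi (both log2 -2.0 at 48 hpi). The log2 change of -1.58 at 48 hpi at the TSS rests on few tags, and in the innermost 1 kb it was -0.87. *Blk* was the only one of the 9 TSSs enriched for H3K27Me3, with 38, 25, 35, 35, and 40 tags, of which only the 3 hpi count was below the limit of 34. The share of all TSSs at that limit was not counted. A mean of at least 20 H3K27Me3 tags was reached by 7383 of 22342 protein-coding TSSs, and by 1 of the 9 genes, *Blk*. Over its 30 windows H3K27Me3 ranged from 12 to 68 tags with a median of 31.0, and 13 windows were enriched at 0 hpi and 12 at 48 hpi, beside 116746 and 128801 of 831443 mappable windows in the genome.

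*Blnk* (ENSMUSG00000061132.7, chr19:41003417-41069025, minus strand) had 1227, 682, 438, 633, and 434 H3K27Ac tags. Its 3 hpi count was already lower than at 0 hpi (log2 -0.84, -0.98 to -0.71), and the changes at 12 and 48 hpi were -1.48 and -1.49. The inhibitory co-receptor gene *Cd22* (ENSMUSG00000030577.6, chr7:31650421-31665361, minus strand) had 582, 248, 296, 195, and 142 tags. It was 2-fold down at 3 hpi (log2 -1.21, -1.45 to -1.01) and had the lowest log2 change at 48 hpi of the 9 genes, -2.00 (-2.31 to -1.77), which overlaps that of *Cd79a*. With 1 tag added to each count, *Blk* was lower on few tags (log2 -2.05, beside -2.03 for *Cd22*).

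By time, 2 of the 9 TSSs had fallen at 3 hpi (*Cd79b* and *Cd22*), 2 at 12 hpi (*Blk* and *Blnk*), and 3 at 24 hpi (*Cd79a*, *Blk*, and *Cd22*). Of all TSSs that passed the filter, 2.29% had fallen at 3 hpi, 3.83% at 12 hpi, and 7.75% at 24 hpi. *Blk*, which is counted at 12 and 24 hpi, did not pass that filter. Of the 9 genes, the count at 24 hpi was 1 with libraries scaled on background bins, and 1 in the innermost 1 kb. The count at 3 hpi was 3 with background bins, where *Blnk* stood at a log2 change of -1.14. The shares of all TSSs at these settings were not counted. The order of the 48 hpi changes ran from *Cd22* and *Cd79a* through *Vpreb1*, *Igll1*, *Blk*, *Blnk*, and *Cd79b* to *Btk* and *Syk*. Neighbors in this order had overlapping counting intervals, except *Cd79b* and *Btk*. The place of *Blk*, which rests on few tags, depended on the tags added to each count. With 1 tag added, *Blk* came first at a log2 change of -2.05, beside -2.03 for *Cd22* and -2.00 for *Cd79a*.

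**Figure D2:**
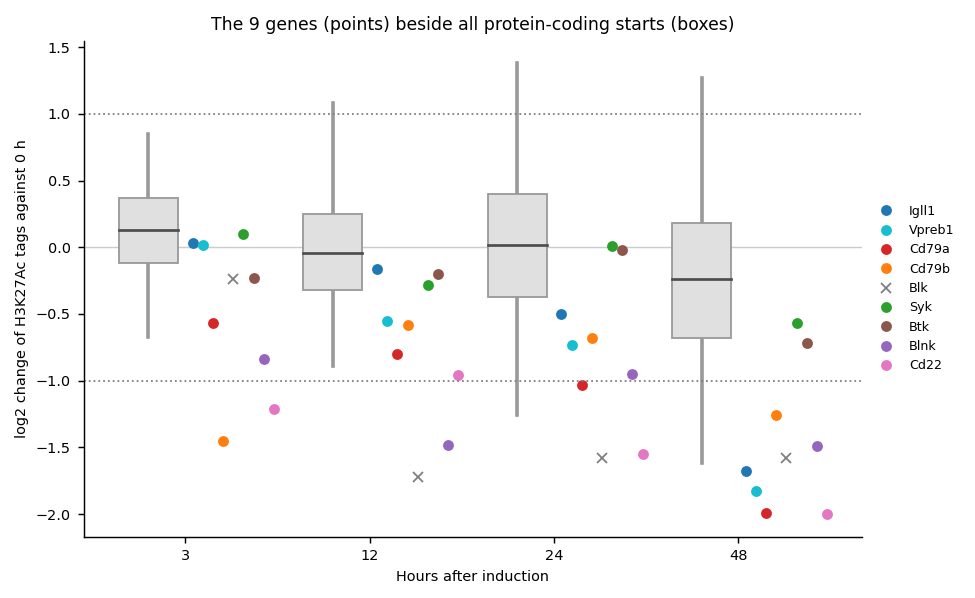
Log2 change of H3K27Ac tags at the TSS against 0 h (y axis) at each later time in hours (x axis). Boxes show the middle 50% and the median, and lines the 5th to 95th percentile, of 11155 protein-coding TSSs; points are the 9 genes (a cross for *Blk*, which did not pass the filter), and dotted lines mark 2-fold. At 48 h, 7 of the 9 lie below the lower dotted line, and *Syk* and *Btk* lie between 0 and that line.

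H3K4Me1 at the TSSs ran from 10 to 159 tags. *Cd79a* rose at 3 hpi, from 64 to 147 tags (log2 1.14, 0.77 to 1.65), and was back at 63 tags at 24 hpi. *Vpreb1* (29 and 66 tags) and *Btk* (14 and 33 tags) were at least 2-fold higher at 12 hpi, at low counts. Thus 1 of 9 rose at 3 hpi and 2 of 9 at 12 hpi, beside 2.46% and 5.55% of 11325 TSSs that passed the same filter. These calls depended on the scaling: none was made with libraries scaled on bins enriched at all 5 times, and 4 were made at each time with background bins. The shares of all TSSs at these scalings were not counted. At 48 hpi, 0 of 9 had fallen, beside 7.84%, which is under 1 gene in 9. The log2 changes ran from -0.87 (*Blk*, 26 to 12 tags) to 0.87 (*Vpreb1*), with -0.64 (-1.12 to -0.24) at *Cd79b* and -0.63 at *Cd22*. The *Vpreb1* value was 0.13 at its most upstream start and 1.68 in the innermost 1 kb. That of *Igll1*, 0.79, was 1.36 with background bins and 1.46 in the innermost 1 kb, both past 2-fold. *Blk* was at 10 tags at 24 hpi (log2 -1.05).

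H3K27Me3 was at 1 to 13 tags at the 8 TSSs other than *Blk* at every time, below the genome mean of 18.4. No TSS gained it 2-fold at 48 hpi, beside 1.41% of the 7383 TSSs that passed the filter, which among the 9 only *Blk* did. At these counts a change of a few tags moves the ratio. *Igll1* (4 and 12 tags, log2 0.92) passed 2-fold in another random draw of tags (log2 1.5). It also did so with background bins (1.03), tags as deposited (1.28), and a pseudocount of 1 tag (1.38).

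**Figure D3:**
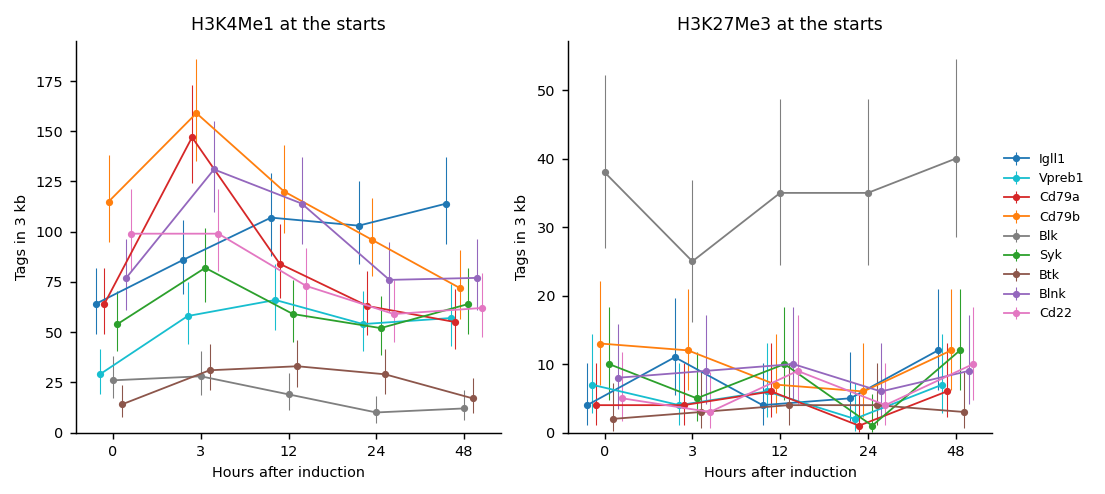
H3K4Me1 (left) and H3K27Me3 (right) tags in 3 kb at the TSS of each gene (y axes, different scales) against hours after induction, with 95% Poisson intervals and 1 library per point. *Cd79a* and *Cd79b* peak at 3 h for H3K4Me1 (147 and 159 tags), and *Blk* lies above the other 8 genes for H3K27Me3, with 25 to 40 tags against 1 to 13.

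Over the whole domains, 95 of the 199 windows were enriched for H3K27Ac at 0 hpi and 91 at 48 hpi. These windows include those at the TSSs described above and those at the starts of neighboring genes. Over the 831443 mappable windows of the genome, 52561 were enriched at 0 hpi and 77163 at 48 hpi. Total H3K27Ac over the windows was 38236 tags at 0 hpi and 19594 at 48 hpi. Of the 121 windows with a mean of at least 20 tags, 54 (44.6%) fell at 48 hpi, beside 16.7% of 96900 such windows in the genome, and 22 (18.2%) rose, beside 33.5%. The domain of *Syk* supplied 15 of the 22 that rose and 2 of the 54 that fell. Without it, 52 of 92 windows (56.5%) fell and 7 (7.61%) rose.

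By domain, H3K27Ac at 48 hpi stood at 20.3% of its 0 hpi total for *Cd22*, 29.2% for *Blnk*, 31.0% for *Igll1* and 31.7% for *Vpreb1*, whose domains overlap, 34.0% for *Cd79b*, 40.7% for *Cd79a*, 68.9% for *Btk*, and 120% for *Syk*. *Blk* had 294 tags in 30 windows at 0 hpi and 177 at 48 hpi.

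The largest falls and rises of single windows lay at *Cd22*, *Blnk*, and *Syk*. From 3 of these windows, the 300 bases with the most H3K27Ac tags are shown in mm9 on the strand of the gene, with the same letters in capitals. The first lies past the 3′ end of *Cd22* and the second upstream of *Blnk*, both of which fell, and the third lies inside *Syk*, outside its annotated exons, and rose:
*Cd22* window, chr7:31648401-31648700, minus strand: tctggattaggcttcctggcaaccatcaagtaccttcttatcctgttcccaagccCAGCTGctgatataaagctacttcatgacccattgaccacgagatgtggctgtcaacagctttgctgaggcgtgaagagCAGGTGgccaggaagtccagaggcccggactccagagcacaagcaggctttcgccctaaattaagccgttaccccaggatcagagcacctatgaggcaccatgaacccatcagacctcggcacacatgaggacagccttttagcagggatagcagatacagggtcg
*Blnk* window, chr19:41085551-41085850, minus strand: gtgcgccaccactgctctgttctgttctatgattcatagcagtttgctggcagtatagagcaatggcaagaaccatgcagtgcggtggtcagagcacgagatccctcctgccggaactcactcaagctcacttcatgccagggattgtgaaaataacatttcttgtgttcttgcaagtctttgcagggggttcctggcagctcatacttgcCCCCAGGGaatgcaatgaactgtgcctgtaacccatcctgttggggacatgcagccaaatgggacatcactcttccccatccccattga
*Syk* window, chr13:52731951-52732250, plus strand: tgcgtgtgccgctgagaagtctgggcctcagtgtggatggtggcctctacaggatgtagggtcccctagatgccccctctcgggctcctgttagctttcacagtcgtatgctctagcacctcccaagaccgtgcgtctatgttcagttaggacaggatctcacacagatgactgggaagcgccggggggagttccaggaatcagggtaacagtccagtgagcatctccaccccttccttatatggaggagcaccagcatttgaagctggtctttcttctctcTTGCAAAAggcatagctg

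The *Cd22* stretch held CAGCTG and CAGGTG once each, the *Blnk* stretch held CCCNNGGG once, and the *Syk* stretch held TTGCNNAA once. Stretches placed alike in the other windows with the largest falls and rises are not shown. The *Blnk* stretch at -2.5 kb, where H3K27Ac fell, held CAGCTG. At *Syk*, where it rose, the stretch at 33 kb held CAGCTG and GAGGAAG, and that at 30 kb matched none of the forms. Neither of these *Syk* stretches held TTGCNNAA. In the middle 300 bases of the 96900 windows above, CAGCTG was in 14.1%, CAGGTG in 20.5%, CCCNNGGG in 7.48%, TTGCNNAA in 11.8%, and GAGGAAG in 11.1%. Those bases were fixed by position, whereas the stretches above were placed where the tags were most, so they were not picked alike.

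At *Cd22*, the window 16.9 kb from the TSS had 546, 146, 67, 21, and 35 H3K27Ac tags, the largest fall of all 199 windows (log2 -3.78). The window away from the TSS with the most tags summed over the 5 times, at -10.1 kb, had 517, 190, 148, 80, and 60 tags (log2 -3.01). Both lie between genes, on opposite sides of *Cd22*, and in both the 3 hpi count was already under 0.5 of the one at 0 hpi. H3K4Me1 kept its level in both windows at 3 hpi, with 243 and 256 tags at 16.9 kb and 242 and 233 at -10.1 kb, and was at 96 and 95 tags by 48 hpi.

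At *Blnk*, the window at -2.5 kb had 1062, 559, 123, 180, and 125 tags (log2 -3.04), and that at -17.5 kb had 178, 41, 12, 13, and 15 (log2 -3.19). At -5.5 kb, the window at least 3 kb from the TSS with the most tags over the 5 times, the counts were 692, 266, 218, 277, and 213 (log2 -1.68). H3K4Me1 at -17.5 kb was 247, 254, 99, 60, and 63 tags, so that at equal depth it fell at 12 hpi (log2 -1.28) and not at 3 hpi. Scaling on background bins adds 0.65 (log2) to H3K4Me1 at 12 hpi, which takes that change under 2-fold. At -5.5 kb H3K4Me1 was 248 tags at 0 hpi and 181 at 48 hpi, under 2-fold. Altogether 14 of 18 *Blnk* windows and 10 of 16 *Cd22* windows that passed the filter fell at 48 hpi, beside 16.7% in the genome. In the *Cd22* domain 4 of the 16 windows rose at 3 hpi (beside 10.4% in the genome), all past the 3′ end of the gene from 22.9 to 34.9 kb, and 1 of them was 2-fold higher at 48 hpi (beside 33.5%). That window, at *Ffar3* (25.9 kb), had 5, 64, 25, 12, and 18 tags.

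**Figure D4:**
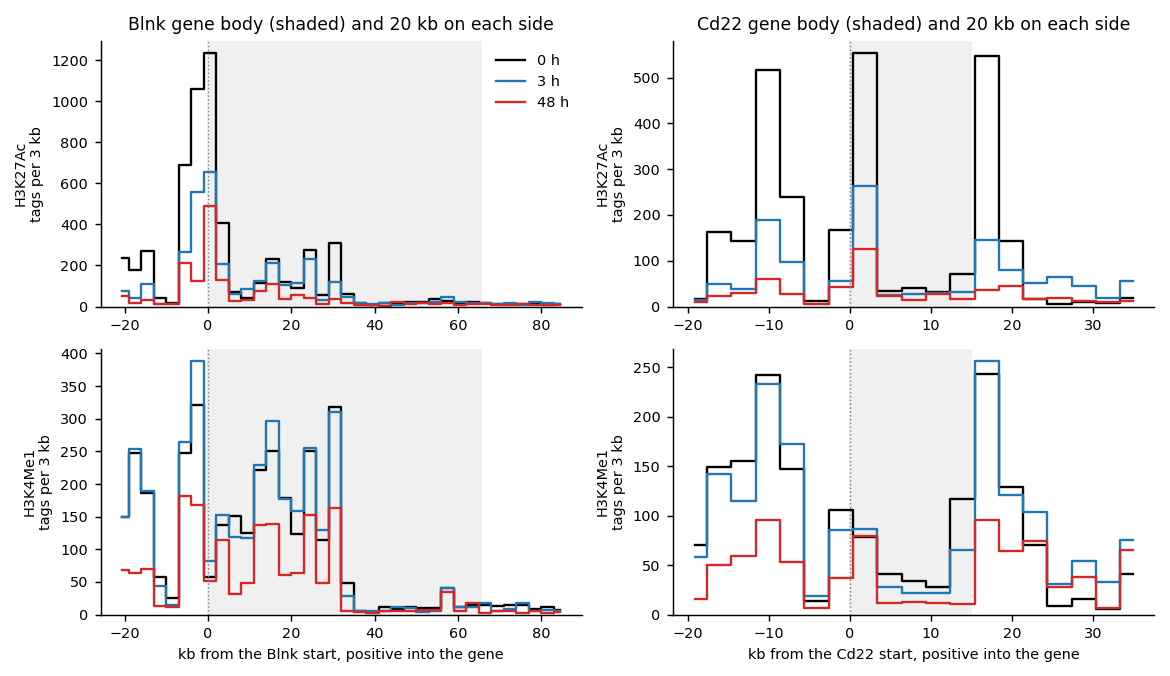
H3K27Ac (top) and H3K4Me1 (bottom) tags per 3 kb window (y axes) against distance from the TSS in kb (x axis, positive into the gene, gene body shaded) for *Blnk* (left) and *Cd22* (right), at 0 h (black), 3 h (blue), and 48 h (red), 1 library each. At 3 h the H3K27Ac line lies well below 0 h at the upstream peaks (41 against 178 tags at -17.5 kb of *Blnk*), while the H3K4Me1 lines of 0 and 3 h lie close together (247 and 254 tags there).

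Over the domains, 54 windows had both H3K27Ac and H3K4Me1 enriched at 0 hpi and H3K27Ac down 2-fold at 48 hpi. They were chosen by their fall of H3K27Ac and not of H3K4Me1, so the counts that follow are a description. In these windows, H3K27Ac was already 2-fold lower in 25 windows (46.3%) at 3 hpi and in 34 (63.0%) at 12 hpi. H3K4Me1 was 2-fold lower in 0, 9, 17, and 24 windows at the 4 later times (0%, 16.7%, 31.5%, and 44.4%). Chosen the same way, 16105 windows of the genome gave near shares. They were 35.6% and 58.9% for H3K27Ac at 3 and 12 hpi, and 0.106%, 11.1%, 24.1%, and 38.8% for H3K4Me1 at the 4 later times. The 2 marks differ in depth and range of counts, which was not adjusted for. All these shares are at equal depth, and background bins add 0.31 to 0.67 (log2) to H3K4Me1 at the later times. With that scaling, H3K4Me1 was 2-fold lower at 48 hpi in 7 windows of the domains with a mean of at least 20 tags, in place of 27.

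Counted over all windows with a mean of at least 20 tags of the mark, 25 of 121 (20.7%) had fallen in H3K27Ac at 3 hpi, beside 9.34% in the genome, and 1 of 113 in H3K4Me1, beside 0.639%. At the same time 11 of the 121 had risen in H3K27Ac, beside 10.4%, and 4 of the 113 in H3K4Me1, beside 3.06%. At 48 hpi, H3K4Me1 had fallen in 27 of the 113 (beside 11.3%) and risen in 14 (beside 24.7%). This split depended on the scaling: with libraries scaled on background bins, 7 fell and 30 rose. The genome shares given are at equal depth, and those with background bins were not counted.

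*Syk* was the gene with gains inside its body. The 3 largest rises of H3K27Ac in the 199 windows were all there, at 54 kb from the TSS (13, 222, 213, 493, and 380 tags, log2 4.42), at 33 kb (37, 79, 437, 753, and 665 tags, log2 4.0), and at 30 kb (21, 48, 149, 292, and 253 tags, log2 3.31). All 3 were at least 2-fold higher at 3 hpi, by a log2 change of 3.66 at 54 kb and of 1.0 and 1.03 at 33 and 30 kb. Scaling on background bins adds -0.30 (log2) to H3K27Ac at 3 hpi, which takes the windows at 33 and 30 kb under 2-fold. H3K4Me1 rose in all 3 as well, from 19 to 129 tags, 64 to 384 tags, and 28 to 211 tags between 0 and 48 hpi. At 3 hpi H3K4Me1 stood at 25, 69, and 20 tags, less than 2-fold from 0 hpi.

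The next values are sums over neighboring *Syk* windows grouped after their values were seen. The 4 windows from 27 to 36 kb went from 155 to 1419 H3K27Ac tags (log2 3.15), and those at 51 and 54 kb from 31 to 532 (log2 3.90). Upstream, the 3 windows from -21 to -15 kb had 2001, 836, 578, 744, and 965 tags. They fell at 3 hpi (log2 -1.25) and were lowest at 12 hpi, with part of the signal back at 48 hpi (log2 -1.05). The pair at -12 and -9 kb, beside them, had 1434, 1087, 1158, 1460, and 1467 tags and did not change 2-fold. H3K27Me3 in these 4 groups of windows was at 8 to 50 tags per group at every time, few per window, with a log2 change of -1.03 at 3 hpi (50 to 22 tags) at 27 to 36 kb.

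**Figure D5:**
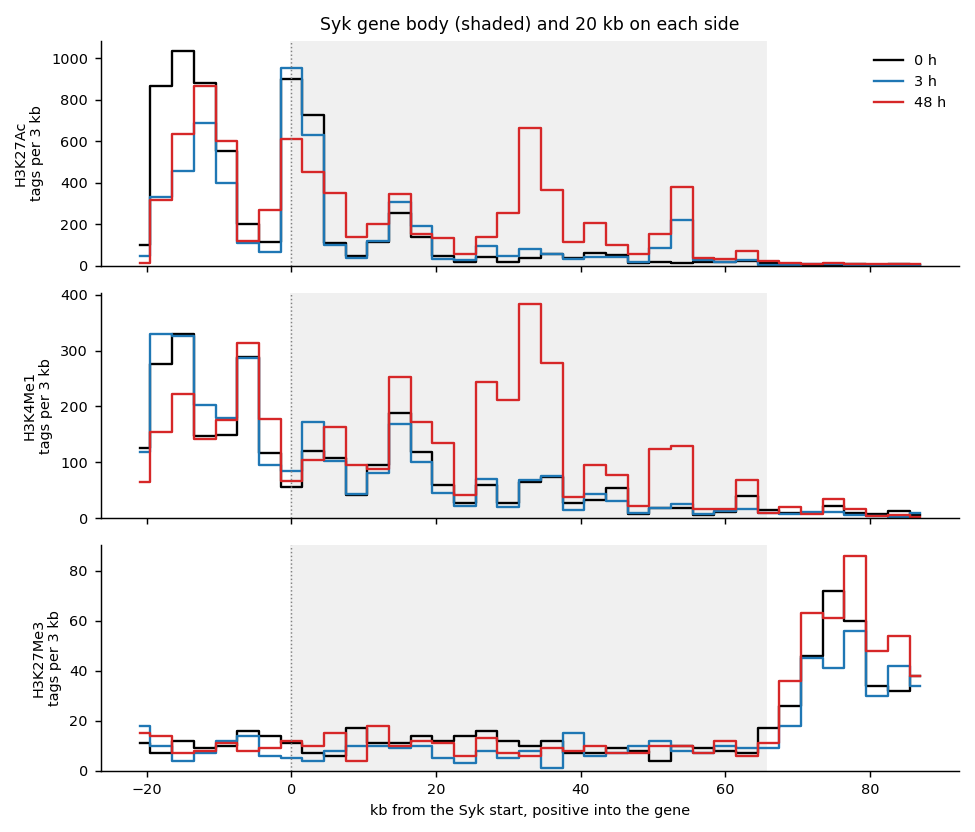
Tags of the 3 marks per 3 kb window (y axes, different scales) against distance from the *Syk* TSS in kb (x axis, gene body shaded) at 0 h (black), 3 h (blue), and 48 h (red), 1 library each. The outer upstream peak is highest at 0 h (1033 tags at -15 kb against 634 at 48 h), H3K27Ac and H3K4Me1 peaks at 27 to 36 kb and at 51 to 54 kb are present at 48 h, and H3K27Me3 lies past the 3′ end of the gene.

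At *Btk*, the window away from the TSS with the most tags over the 5 times lay in an intron at 19.2 kb and had 471, 723, 281, 241, and 137 H3K27Ac tags (log2 -1.75 at 48 hpi). It was highest at 3 hpi and then lower at each time, while H3K4Me1 there was 85, 158, 148, 102, and 106 tags. The neighboring window at 16.2 kb had the same order of H3K27Ac values, with 354, 585, 225, 224, and 170 tags. The *Btk* TSS kept 60.5% of its tags at 48 hpi, and the window at 19.2 kb thus changed more than the TSS. The window with the starts of *Gla* and *Hnrnph2*, at -16.8 kb, rose from 178 to 451 tags (log2 1.32).

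The other genes of the pathway, a list of 33 co-receptors, adaptors, kinases, and lipid and calcium signaling genes, more often fell than rose. H3K27Ac at the TSS fell at 48 hpi in 16, rose in 2, and changed less than 2-fold in 15, with a median log2 change of -0.99, and all 33 passed the filter. Over all TSSs that passed, 14.6% fell, 6.43% rose, and the median was -0.24. The share that rose, 2 of 33, was thus near that of all TSSs, and none of the 9 receptor genes rose, where under 1 gene in 9 would at that share. Among the largest changes were *Prkcb* (protein kinase Cβ, 93 to 11 tags, log2 -2.61), *Cd72* (an inhibitory co-receptor, 641 to 105, -2.55), *Rasgrp3* (a Ras activator, 195 to 32, -2.43), and *Cr2* (complement receptor 2, 246 to 44, -2.36). *Siglecg* (an inhibitory lectin like CD22, 626 to 181, -1.76) and *Itpr1* (an IP3 receptor, 470 to 136, -1.75) also fell. *Fcrl1*, an Fc receptor-like gene of B cells, fell from 304 to 94 (log2 -1.64).

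Among the others, chosen after their values were seen, *Lyn*, a Src family kinase like BLK, had 841, 1017, 951, 1136, and 916 tags (log2 0.12), and *Ptprc*, which encodes the CD45 phosphatase, had 754 at 0 hpi and 696 at 48 hpi (log2 -0.11). *Inpp5d*, which encodes the inositol phosphatase SHIP1, fell from 1236 to 495 (log2 -1.31) and *Plcg2*, a phospholipase C gene, from 569 to 259 (log2 -1.12). *Pik3cd* (541 and 269, log2 -0.99), *Pik3ap1* (1608 and 892, log2 -0.85), *Vav1* (746 and 475, log2 -0.65), and *Ptpn6* (626 and 452, log2 -0.47) were under 2-fold. *Sh3bp2*, an adaptor that binds SYK, rose from 26 to 69 tags (log2 1.26) and *Bcl10*, a signaling adaptor of the NF-κB pathway, from 232 to 486 (log2 1.05).

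By their levels of H3K27Ac and H3K4Me1 over the 10 libraries of these marks, each centered on its own mean, *Vpreb1* was the nearest of 10203 TSSs to *Igll1* (Euclidean distance 0.518 on the log2 scale). The next were *Asap1* (0.567), *Hjurp* (0.580), *Nudcd2* (0.593), and *Dio2* (0.598). Nearest to *Cd79a* were *Parp16* (0.530), *Rtn4rl1* (0.604), *Gpr19* (0.608), *Tex9* (0.627), and *Ncapg* (0.630). *Cd79b*, the partner of *Cd79a* in the heterodimer, was at rank 2243 (1.31), and *Blnk* was the nearest of the 9 genes, at rank 486 (0.998).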

How the data were processed

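Per the study's methods, the authors aligned reads to mm9 with Bowtie or Eland and kept distinct tags that aligned uniquely and without mismatches. They deposited 1 list of 36-base tag positions per library, without strand, score, or control sample. Bowtie and mm9 are also named in the submitters' processing notes. The deposited tag positions are the only unit used, and all counts were computed from them here. The members and the gene lists were chosen with earlier results of these data known.

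One tag was kept per position, placed at its middle (base 18), and random tags were removed until every library matched the smallest of its mark on chromosomes 1 to 19 and X. With 1 tag per position, a window could hold no more tags than bases, which holds down the highest counts. The intervals do not allow for this cap. In the deposited lists, up to 5.57% of tags lay at a position already held by another tag. Without strand, 2 tags at 1 position can be copies or tags of opposite strands. The most tags at 1 position were 205 in H3K4Me1 at 0 hpi and 135 at 48 hpi, more than 2 strands give once identical tags are removed. The most were 1 in H3K27Me3 at 0 and 48 hpi and 2 in the other libraries, so the lists were not filtered alike. In 3 libraries, 2 lines held no position and were left out. The TSS was the start of the protein-coding transcript with the longest coding sequence in GENCODE vM1 (NCBIM37, which is mm9), and older symbols were matched through RefSeq synonyms (Emr1, an older symbol of *Adgre1*, was not counted again). Windows lay on a fixed 3 kb grid, and a window was mappable if any of the 15 libraries had a tag in it. Enrichment was a Poisson upper tail below 0.001 over the mean of mappable windows. Intervals are exact Poisson for a count and exact conditional binomial (Clopper-Pearson) for a ratio without the added 5 tags. PCR copies cannot be told from independent fragments, and no input library was used, so intervals cover counting error only.

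The text names the 9 genes, *Vpreb2* and *Vpreb3*, up to 8 pathway genes past 2-fold, for each gene the window at least 3 kb from its TSS with the most H3K27Ac summed over the 5 times, the 3 largest falls and rises among windows with at least 50 tags at the higher of 0 and 48 hpi, and the 5 genes nearest to *Cd79a* and *Igll1*, among TSSs with a mean of at least 50 H3K27Ac tags. *Lyn*, *Ptprc*, *Inpp5d*, *Plcg2*, *Pik3cd*, *Pik3ap1*, *Vav1*, *Ptpn6*, *Sh3bp2*, *Bcl10*, and windows beyond this rule were chosen after their values were seen. Values of some listed genes are not reported here. The counting and the 2-fold calls were tested on simulated data. Sequences were read from NCBIM37, and the *Vpreb1* promoter is not shown because it overlaps an annotated exon. Python 3.11.15, numpy 2.4.6, pandas 2.3.3, scipy 1.17.1, pysam 0.24.0, and samtools 1.23.1 were used. Alternatives were other scalings, no thinning, another random draw, tags as deposited, other window sizes, starts, pseudocounts, grids, and thresholds.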

Additional observations from a re-analysis of the deposited data

How the results depend on the processing

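With 1 library per mark and time, no value has a replicate, and a change at 1 time cannot be told apart from that library. No paired analysis was possible because no group has a second library and no test was run. Over 13 alternatives, 57 results gave 469 values, of which 0 changed sign past 2-fold. H3K27Ac at 48 hpi was lower than at 0 hpi at all 9 TSSs under each alternative tried, and 5 to 8 TSSs were past 2-fold beside 7. Libraries differ in background. Scaling on background bins adds -0.30 (log2) to H3K27Ac at 3 hpi, 0.64 at 24 hpi, and 0.31 to 0.67 to H3K4Me1 at later times. Scaling on bins enriched at all 5 times adds 0.33 to H3K27Ac at 48 hpi.

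Scaled on background bins, H3K27Ac at the TSS had fallen at 24 hpi in 1 gene in place of 3, H3K4Me1 had risen in 4 at 3 hpi (in place of 1) and 4 at 12 hpi (in place of 2), and H3K27Me3 had risen in 1 at 48 hpi (in place of 0). H3K27Ac had then fallen in 39 windows at 3 hpi (25 before), and H3K4Me1 in 0 at 3 hpi (1 before) and 7 at 48 hpi (27 before), while it had risen in 30 (14 before). Scaled on bins enriched at all 5 times, H3K4Me1 had risen at 0 TSSs at 3 and 0 at 12 hpi, and 17 windows in place of 27 were enriched for H3K27Me3 at 48 hpi. Without thinning, H3K4Me1 had risen in 0 at 3 hpi and 1 at 12 hpi, with 0 windows lower at 3 hpi. Another random draw gave 1 for H3K4Me1 at 12 hpi, 1 for H3K27Me3 at 48 hpi, and 2 windows with H3K4Me1 lower at 3 hpi, and tags as deposited gave 1 and 1 for the first and second of these. A pseudocount of 1 tag gave 2 TSSs with H3K4Me1 higher at 3 hpi, 1 with it lower at 48 hpi, and 1 with H3K27Me3 higher. In 1 kb, H3K27Ac had fallen at 24 hpi in 1 gene, and H3K4Me1 had risen in 2 at 3 hpi and fallen in 1 at 48 hpi. In 6 kb, H3K4Me1 had risen in 1 at 12 hpi and fallen in 1 at 48 hpi, and with the most upstream start it had risen in 1 at 12 hpi. The grid shifted by 1.5 kb gave 0 windows with H3K4Me1 lower at 3 hpi, and enrichment at p below 1e-05 gave 14 and 17 H3K27Me3 windows at 0 and 48 hpi (23 and 27 before). Without the filter on low counts, 9.27% of all TSSs had fallen in H3K27Ac at 48 hpi, in place of 14.6%. The shares of all TSSs and windows were not counted under the other scalings, and the causes were not tested. Of the other values, 386 stayed within their counting interval or within 1.5 times, and 51 single gene values moved outside their interval.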
